A study of Lotus japonicus with 6 samples.

Results

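The cytochrome P450 genes whose array names carry the codes CYP724A or CYP88A were measured in leaves of Lotus japonicus lines labelled as overexpressing LjMyb14 and in wild type leaves. They were found by name alone, as non-control spots whose name starts with either code. This gave 14 genes with 28 probes (56 spots), out of 3469 names with 6358 probes (14642 spots) on the array. Of these, 4 genes with 8 probes are CYP724A and 10 genes with 20 probes are CYP88A. The codes were chosen by the difference between lines and wild type in an earlier analysis of these arrays, in which several of their probes were lower in the lines. That difference is therefore given for them as a description, and where the calls of the fit across all probes are counted among them, the count is fixed in part by this choice and is no test of it.

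The overexpressing group holds 3 independent transgenic lines in the MG20 background, each with LjMyb14 behind the Lotus ubiquitin promoter, a constitutive promoter, and each measured on 1 array. The wild type group holds 3 arrays of MG20 leaf. Plants of both groups were grown in vitro on MS medium, and neither plant age nor the number of plants per sample is stated in the labels. A custom Agilent 1-colour array of regulatory and secondary-metabolism genes was used, so most of the transcriptome was not measured.

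Brassinosteroids are steroid hormones and gibberellins are diterpenoid hormones, and both promote cell elongation and leaf and stem growth. In brassinosteroid synthesis, P450s of the CYP90 and CYP85 families hydroxylate and oxidise the steroid. In rice and tomato, members of the CYP724B subfamily act at the C-22 hydroxylation step that CYP90B also carries out. In gibberellin synthesis, CYP701A (ent-kaurene oxidase) makes ent-kaurenoic acid, and CYP88A (ent-kaurenoic acid oxidase, known from Arabidopsis, barley and pea) converts it to the first gibberellin. The array's codes name a family by similarity, and the activity of these Lotus proteins is not given in the files.

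Values are given as log2 of the signal over that of the 75th percentile of the same array's non-control spots, so a value of 0 is a signal at that percentile. Between wild type arrays 1 and 3 the differences were smaller than replicate spots within an array would give (0.444 times the variance expected from the spots, against 2.76 to 11.3 for the other 5 pairs of arrays within a group). They were averaged and counted as 1 sample, so n is 3 for the lines and 2 for wild type. The labels do not say that lines or wild type samples were grown separately, so the spread between them may be partly technical. The 75th percentile signal ranged from 364 to 404, and 71.7% to 78% of spots were well above background. The label could not be checked with the probes named LjMYB14, which lay near background in both groups (log2 difference 0.11 at the tested probe, limma adjusted p = 0.939), whereas LjMYB76a was 186-fold higher in the lines at its brighter probe (limma adjusted p = 0.000189). Leaf was not checked either: no name for a small Rubisco subunit or a chlorophyll-binding protein was found on the array. YABBY genes were also looked up as leaf markers. Of 7 such names 6 genes were tested, and 0 had a limma adjusted p under 0.05, beside 2.21% higher and 1.09% lower of all tested genes. This compares the groups and does not show which tissue was sampled.

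Among the CYP724A genes, 3 of 4 were lower in the lines at both of their probes, by 4.30-fold to 5.60-fold. CYP724A_chr2.CM0262.120.nd and CYP724A_chr2.CM0262.110.nd carry consecutive numbers on the same chromosome 2 clone, and CYP724A_chr1.CM0001.640.nc is named for chromosome 1. CYP724A_chr2.CM0262.130.nd, the next number on the chromosome 2 clone, had a log2 difference of -0.24 with overlapping groups. Bulk leaf RNA cannot tell fewer cells of a type from less RNA per cell.

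CYP724A_chr2.CM0262.110.nd, at probe CUST_623, gave -4.80, -4.75 and -4.22 in lines 1, 2 and 3, against -1.76, -2.43 and -1.81 on wild type arrays 1, 2 and 3. All lines lay below all wild type arrays, with the lowest wild type array still 1.79 above the highest line. The group means were -4.59 ± 0.32 (SD, n = 3) in the lines and -2.11 ± 0.45 (SD, n = 2) in wild type, a log2 difference of -2.49 or 5.60-fold lower. Its other probe, CUST_622, gave -4.61, -4.42 and -4.12 in the lines, against -1.66, -2.33 and -1.73 in wild type, a difference of -2.37.

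In CYP724A_chr2.CM0262.120.nd, too, line 3 was the highest line and wild type array 2 the lowest wild type array at both probes. Its probe CUST_578 gave -5.39, -5.45 and -4.76 in lines 1, 2 and 3, against -2.33, -3.11 and -2.42 on the wild type arrays, with means of -5.20 ± 0.38 (SD, n = 3) and -2.74 ± 0.52 (SD, n = 2). At 5.50-fold lower, this probe differed from its partner CUST_579 mainly in line 3. CUST_579 gave -5.57, -5.68 and -4.33 in the lines, against -2.66, -3.40 and -2.76 in wild type, and was 4.40-fold lower. Line 3 was thus 1.28 below the wild type mean at CUST_579, and lines 1 and 2 were 2.51 and 2.62 below it.

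CYP724A_chr1.CM0001.640.nc, on another chromosome, repeated this split between its probes. CUST_709 gave -4.41, -4.54 and -3.27 in lines 1, 2 and 3, against -1.60, -2.31 and -1.67 in wild type, which is 4.30-fold lower with line 3 again the least reduced. CUST_708 gave -4.89, -5.19 and -4.76 in the lines, against -2.31, -3.11 and -2.27 in wild type, which is 4.75-fold lower with the 3 lines within 0.43 of each other. Every array was well above background at both probes. These are dim probes, as the processed signal at CUST_622 of CYP724A_chr2.CM0262.110.nd shows, with 16.6, 18.3 and 23.1 in the lines, against 122.7, 72.4 and 116.8 in wild type.

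**Figure D1:**
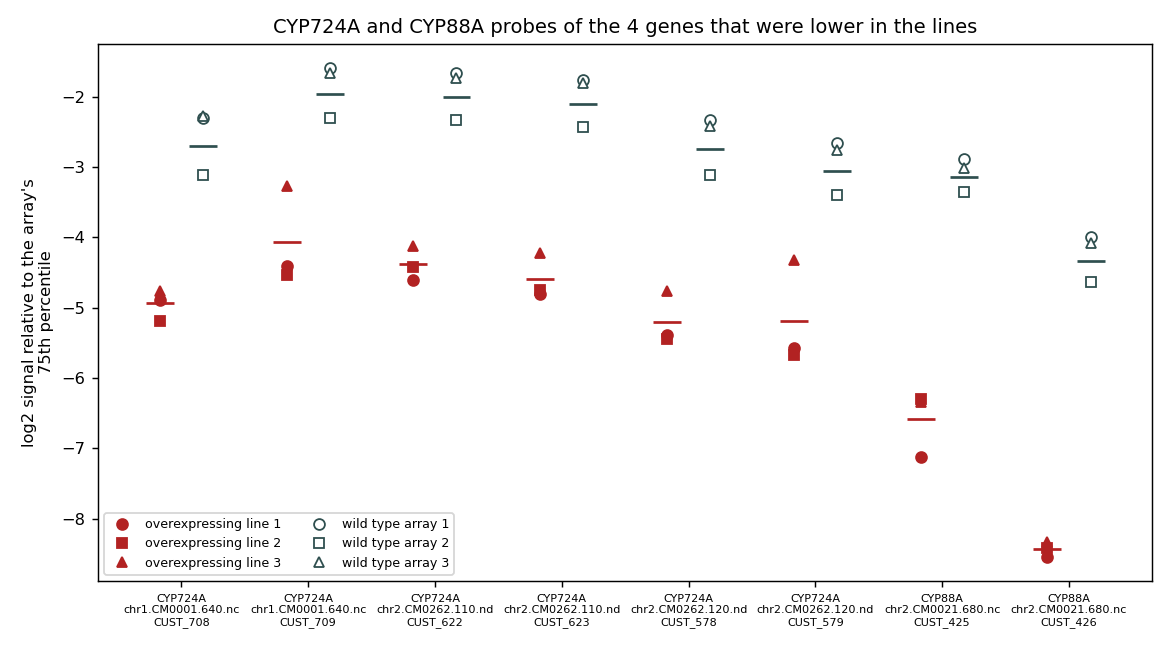
Log2 of the signal over the array's 75th percentile signal (vertical axis) at the 8 probes of the 4 genes with the most negative differences between lines and wild type, with lines 1 to 3 as filled symbols on the left of each pair and wild type arrays 1 to 3 as open symbols on the right; bars are group means, with wild type arrays 1 and 3 counted as 1 sample. All lines lie below all wild type arrays at each probe, and wild type array 2 is the lowest wild type array at all 8.

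Across arrays, probes of different CYP724A names followed each other as closely as probes of 1 name. After the mean of the wild type arrays was subtracted from each probe, CUST_709 of CYP724A_chr1.CM0001.640.nc and CUST_579 of CYP724A_chr2.CM0262.120.nd differed by a root mean square of 0.04 over the 6 arrays. CUST_623 of CYP724A_chr2.CM0262.110.nd and CUST_578 of CYP724A_chr2.CM0262.120.nd differed by 0.06. The 2 probes of the same name differed by 0.34 for CYP724A_chr1.CM0001.640.nc, 0.31 for CYP724A_chr2.CM0262.120.nd and 0.11 for CYP724A_chr2.CM0262.110.nd. The 6 probes therefore fell into a pair in which line 3 was at -1.41 and -1.39 and a set of 4 in which it was -2.14 to -2.22, and this division crosses the gene names. Probe sequences were not used here, so whether the probes detect a common transcript was not tested, and the 3 names may not be 3 separate measurements.

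**Figure D2:**
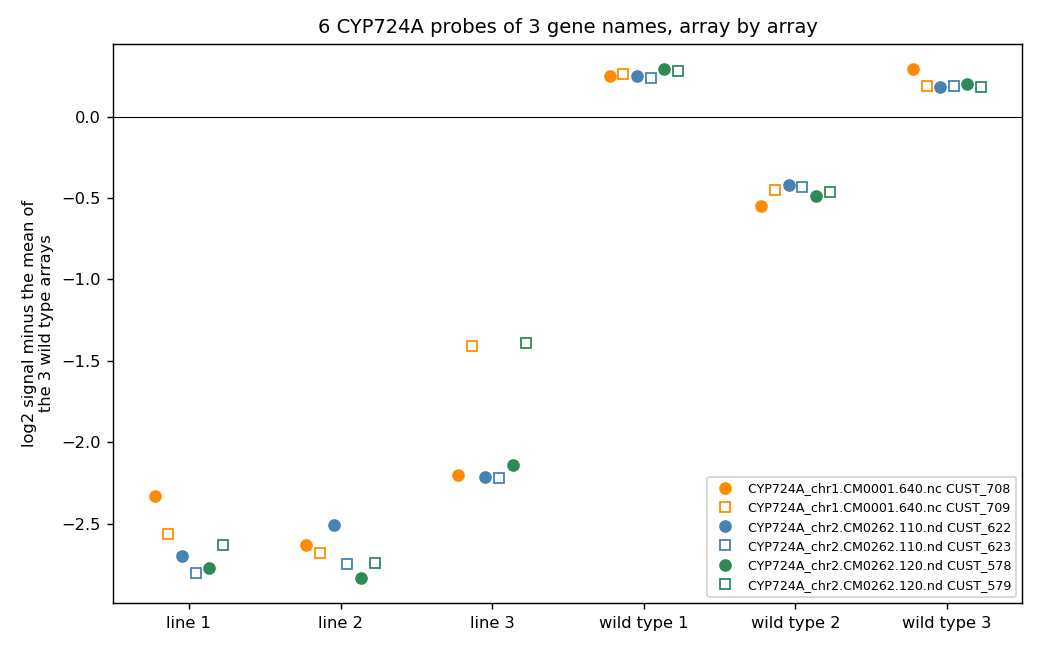
Log2 signal minus the mean of the 3 wild type arrays (vertical axis) for 6 CYP724A probes on each of the 6 arrays, with lines on the left and wild type on the right, 1 colour per gene name, filled circles for the first probe of a name and open squares for the second. In line 3 the squares of CYP724A_chr1.CM0001.640.nc and CYP724A_chr2.CM0262.120.nd lie at -1.41 and -1.39 and the other 4 probes between -2.22 and -2.14.

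The last CYP724A gene, CYP724A_chr2.CM0262.130.nd, varied within both groups. Its probe CUST_525 gave -4.64, -6.09 and -4.85 in lines 1, 2 and 3, against -5.87, -4.46 and -5.02 on the wild type arrays, so the groups overlapped. The log2 difference was -0.24, with a 95% confidence interval from -1.58 to 1.10. Unlike at the other CYP724A probes, wild type array 2 was the highest wild type array here. The other probe, CUST_524, was not well above background on any array, so it has no usable difference.

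Among the CYP88A genes, CYP88A_chr2.CM0021.680.nc stood apart: both probes were above background on all 3 wild type arrays, while in the lines CUST_425 was above background on 1 array and CUST_426 on none. CUST_425 gave -7.12, -6.30 and -6.34 in lines 1, 2 and 3, against -2.89, -3.35 and -3.02 on the wild type arrays. The means were -6.59 ± 0.46 (SD, n = 3) in the lines and -3.15 ± 0.28 (SD, n = 2) in wild type, which is 10.8-fold lower as measured, with line 2 the only line above background.

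CUST_426 gave -8.54, -8.42 and -8.33 in the lines, against -3.99, -4.64 and -4.08 in wild type. Set against the lowest signal above background on each line array, it was at least 7.45-fold lower. The bound is a ratio of means that takes no account of sample spread. The processed signal at CUST_426 was 1.1, 1.1 and 1.2 in the lines, against 24.5, 14.6 and 23 in wild type, so the measured log2 difference of -4.10 is limited by the background of the line arrays.

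The other 9 CYP88A genes had small negative differences or were too dim. Of their 18 probes, 13 were tested and all 13 had a negative difference, from -0.89 to -0.01 with a median of -0.42. Of all 5039 tested probes 58% had a negative difference, and their median was -0.09. All lines lay below all wild type arrays at 10 of these 13 probes, and 21.7% of all tested probes separated the groups in that direction. The 13 probes belong to only 7 genes, so they are not separate members. Since the codes were chosen with this contrast known, nothing is read from either count.

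CYP88A_LjSGA_033273.1 was the lowest of these, at -2.18, -2.86 and -1.95 in lines 1, 2 and 3, against -1.36, -1.47 and -1.44 in wild type at CUST_189. The difference was -0.89 at this probe and -0.79 at CUST_190. Line 2 was the lowest line at both, at 1.43 and 1.39 below the wild type mean, and line 3 was the highest, at 0.51 and 0.30 below it.

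CYP88A_LjSGA_147856.1 varied less between lines. CUST_356 gave 0.50, 0.78 and 0.53 in lines 1, 2 and 3, against 1.29, 1.28 and 1.21 in wild type, a difference of -0.66 with means of 0.60 ± 0.16 (SD, n = 3) and 1.27 ± 0.03 (SD, n = 2). CUST_355 gave -0.76, and all lines were below all wild type arrays at both probes.

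CYP88A_LjSGA_103858.1 had differences of -0.41 and -0.42 at its 2 probes, with line 1 the lowest line (0.61 below the wild type mean at each). CYP88A_chr3.CM0292.180.nc had -0.40 and -0.36, but line 2 lay only 0.03 and 0.06 below the wild type mean there. CYP88A_chr3.CM0423.360.nc, named for chromosome 3 like the previous gene, had -0.38 at CUST_551, and its other probe was not above background on any array.

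CYP88A_LjSGA_114566.1 and CYP88A_LjSGA_070650.1 had -0.57 and -0.47 at their brighter probes. At the dimmer ones, above background on 5 and 4 of the 6 arrays, the differences were -0.11 and -0.01 and the groups overlapped. For CYP88A_LjSGA_114566.1, line 2 again held the lowest value, 1.16 below the wild type mean at CUST_631, against 0.31 and 0.24 for lines 1 and 3.

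CYP88A_LjT10D02.280.nd was not above background on any array at either probe. For CYP88A_LjSGA_017847.1, CUST_217 was above background on 1 line array and 1 wild type array, and CUST_218 on 1 line array. These 2 genes were not tested, and no difference is given for them. With CUST_524 and CUST_550, 6 of the 28 probes were left out as too dim.

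In a limma fit across all 5039 tested probes, 6 of the 22 tested CYP724A and CYP88A probes had a Benjamini-Hochberg adjusted p under 0.05 and a lower value in the lines, and 0 a higher one (also 0 at an unadjusted p under 0.05). They were CUST_708, CUST_622, CUST_623, CUST_578, CUST_425 and CUST_426. The last 2 entered the fit through the 3 wild type arrays, with 1 and 0 line arrays above background. The filter itself thus favoured a lower value in the lines, and these 2 calls are no separate support for it. Of all tested probes, 1.13% were called lower and 2.3% higher, and since the codes were chosen with this contrast known nothing is read from the difference. With all 6 arrays counted singly the count was 10 lower and 0 higher, beside 5.89% and 6.79% of all tested probes. All lines lay below all wild type arrays at 18 of the 22 probes, beside 21.7% of all tested probes, and nothing is read from this either. The count of 6 was 0 with slide row as a block, 1 without wild type array 2, 0 without wild type arrays 1 and 3 together, 1 without line 1 and 2 with scaling on spike-in probes. Without wild type array 2 the differences at the 6 probes were -2.66 to -4.40, each larger in size than with all arrays. With normexp background correction, run on the median spot signal with an offset of 50, the 8 probes of the 4 lower genes gave -1.05 to -0.47. Their processed signals, a different measure, lay between 1.1 and 128.1.

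The wild type arrays were not alike at these genes. Array 2 was below arrays 1 and 3 at all 8 probes of the 4 lower genes, by 0.40 to 0.82 relative to the mean of the other 2, on the side of the lines. It was below both at 18 of the 22 tested CYP724A and CYP88A probes and at 57% of all tested probes. Left alone as the wild type, it gave differences of -1.84 to -2.17 at the 4 called CYP724A probes and of -3.24 and -3.79 at the CYP88A_chr2.CM0021.680.nc probes. Line 1 lay in the same slide row as the wild type arrays and lines 2 and 3 in the other row. Line 1 alone, within that row, was 2.19 to 2.70 below the wild type mean at the 6 probes of the 3 lower CYP724A genes, and 3.97 and 4.20 below it at CYP88A_chr2.CM0021.680.nc.

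The 2 probes of a gene gave similar differences in most genes, but not in all. Over the 10 genes with both probes tested, the gap between their log2 differences was 0.01 to 0.67 with a median of 0.14. Where the dimmer probe was above background on all arrays (7 genes), the largest gap was 0.32. The 0.67 belongs to CYP88A_chr2.CM0021.680.nc, whose line values are at background. CYP88A_LjSGA_114566.1 (-0.57 and -0.11) and CYP88A_LjSGA_070650.1 (-0.47 and -0.01) each had a gap of 0.46, nearly as large as the difference at the brighter probe.

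**Figure D3:**
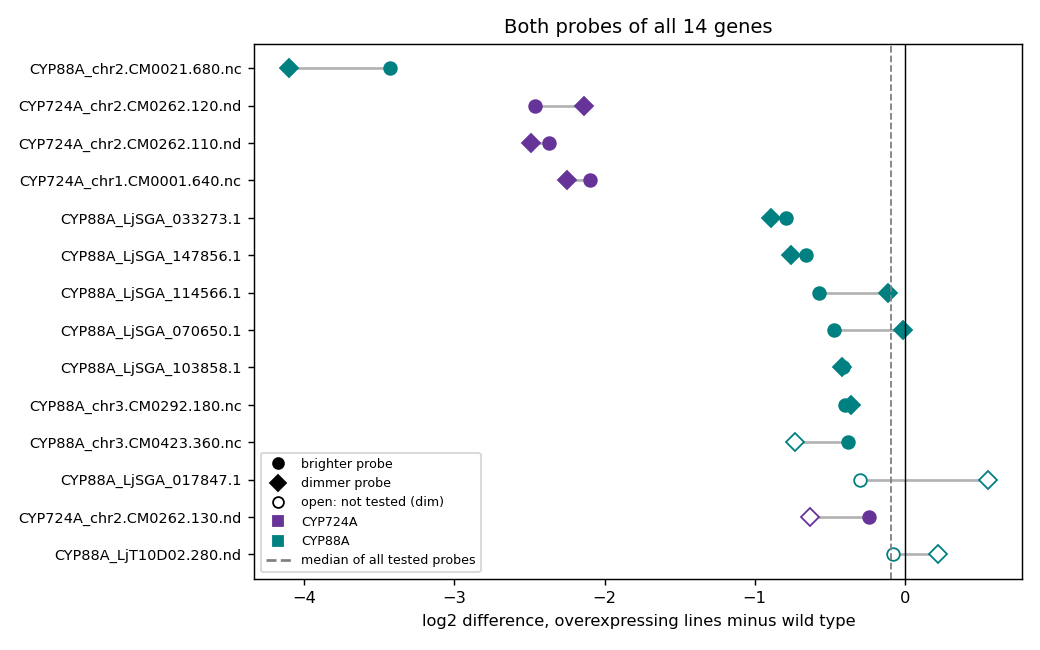
Log2 difference, overexpressing lines minus wild type (horizontal axis), at both probes of each of the 14 genes (rows), with circles for the brighter probe, diamonds for the dimmer one, open symbols for probes left out as too dim, and a dashed line at the median of all tested probes (-0.09). The probes of CYP88A_chr2.CM0021.680.nc and of 3 CYP724A genes lie at or below -2.10, and all other tested probes lie between -0.89 and -0.01.

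Of 21 further names with brassinosteroid codes, 18 genes were tested at their brightest probe. Of these, 1 rose and 1 fell, beside 2.21% and 1.09% of all 2488 tested genes. At an unadjusted limma p under 0.05 there were 2 higher and 4 lower, beside 9.57% and 10% of all tested genes. The median difference of the 18 genes was -0.44, against -0.09 for all genes.

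The gene that rose was CYP85_LjSGA_048957.1, of the family that includes brassinosteroid C-6 oxidases. At CUST_609 it gave -3.28, -3.89 and -3.77 in lines 1, 2 and 3, against -5.34, -5.67 and -5.78 in wild type, with no overlap. It rose 3.92-fold (log2 difference 1.97, limma adjusted p = 0.0268) and was above background on 2 of the wild type arrays. Its other probe gave 2.00 (limma adjusted p = 0.0437) and was above background on only 1 wild type array. Both probes entered the fit through the 3 line arrays, so the other probe is no separate support for the rise. The gene is counted by its brightest probe, CUST_609. The call ended without wild type array 2 (1.91, adjusted p = 0.251), without arrays 1 and 3 (2.03, adjusted p = 0.208), without line 1 (1.79, adjusted p = 0.118) and without line 3 (2.03, adjusted p = 0.0548), all by limma. It also ended with normexp background correction (0.36, limma adjusted p = 0.142), slide row as a block (2.34, adjusted p = 0.114) and scaling on spike-in probes (1.74, adjusted p = 0.379).

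The gene that fell was CYP90C_LjSGA_038968.1, of the family of the Arabidopsis brassinosteroid C-23 hydroxylase ROTUNDIFOLIA3. At CUST_479 it gave -0.52, -0.56 and -0.49 in the lines, against 0.53, 0.55 and 0.57 in wild type, and arrays within a group were within 0.07 of each other. It fell by 1.07 on the log2 scale, or 2.11-fold (limma adjusted p = 0.0459), and its other probe gave -1.08 (limma adjusted p = 0.0623). Its value moved little when arrays were left out (-1.09 to -1.06). The call ended without wild type array 2 (-1.07, limma adjusted p = 0.346), without arrays 1 and 3 (-1.07, adjusted p = 0.336), without line 1 (-1.08, adjusted p = 0.211) and without line 3 (-1.09, adjusted p = 0.0877). It also ended with slide row as a block (-1.07, limma adjusted p = 0.303), no scaling (-0.99, adjusted p = 0.0606), spike-in scaling (-1.30, adjusted p = 0.597) and no filter on dim probes (-1.07, adjusted p = 0.0714). The other 3 CYP90C genes had differences of -0.79, -0.71 and -0.70 and were not called.

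CYP90B, the steroid C-22 hydroxylase family whose step the CYP724B enzymes share, had 3 tested genes with differences of 0.17, 0.33 and 0.35, none called, and line 2 was the lowest line in each. These 3 names followed one another across the arrays, as did some of the CYP90A names, so they may not be separate measurements. The brightest, CYP90B_LjSGA_107966.1, gave -0.98, -1.57 and -0.66 in the lines, against -1.22, -1.61 and -1.27 in wild type, with overlapping groups (limma adjusted p = 0.622). The 4 CYP90A genes had -0.52 to -0.40, and the brightest, CYP90A_LjSGA_014057.1, gave 1.46, 1.67 and 1.39 in the lines, against 1.92, 2.15 and 1.86 in wild type (limma adjusted p = 0.254). In CYP90C the brightest gene was CYP90C_chr2.CM0249.430.nc, at 0.17, 0.76 and 0.38 in the lines, against 1.25, 1.07 and 1.22 in wild type (limma adjusted p = 0.203). All lines lay below all wild type arrays at CYP90A_LjSGA_014057.1 and CYP90C_chr2.CM0249.430.nc.

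The brightest gene with the plain CYP85 code, CYP85_LjSGA_010577.1, had a difference of 0.73 (limma adjusted p = 0.245), and CYP85A_chr2.CM0312.260.nc had 0.32 (limma adjusted p = 0.457). CYP90D_chr3.CM0355.210.nc had -0.48 (limma adjusted p = 0.624) and CYP92A_chr5.CM0569.10.nd -0.43 (limma adjusted p = 0.419). CYP734A_LjSGA_074554.1, of a family that inactivates brassinosteroids, had -0.50 (limma adjusted p = 0.311).

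On the gibberellin side, 0 of 11 further genes were called in either direction by limma, beside 2.21% higher and 1.09% lower of all tested genes. At an unadjusted limma p under 0.05 there were 0 higher and 1 lower, beside 9.57% and 10% of all tested genes. The differences of the 11 genes ran from -0.70 to -0.03 with a median of -0.39. All 11 were negative, beside 57.9% of all tested genes. Some CYP701A names had much the same values on each array, so the 11 names may not be 11 separate measurements. The list was drawn up with earlier results known, and nothing is read from this count. The 7 CYP701A genes, of the family that acts at the step before CYP88A, had -0.64 to -0.03. The brightest of them, CYP701A_LjSGA_078413.1, gave -0.12, 0.03 and -0.36 in the lines, against 0.18, -0.17 and 0.19 in wild type, with overlapping groups (limma adjusted p = 0.771). The 4 CYP714A genes, of a family that inactivates gibberellins, had -0.70 to -0.35, and the brightest, CYP714A_LjSGA_008031.1, had -0.35 (limma adjusted p = 0.572).

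**Figure D4:**
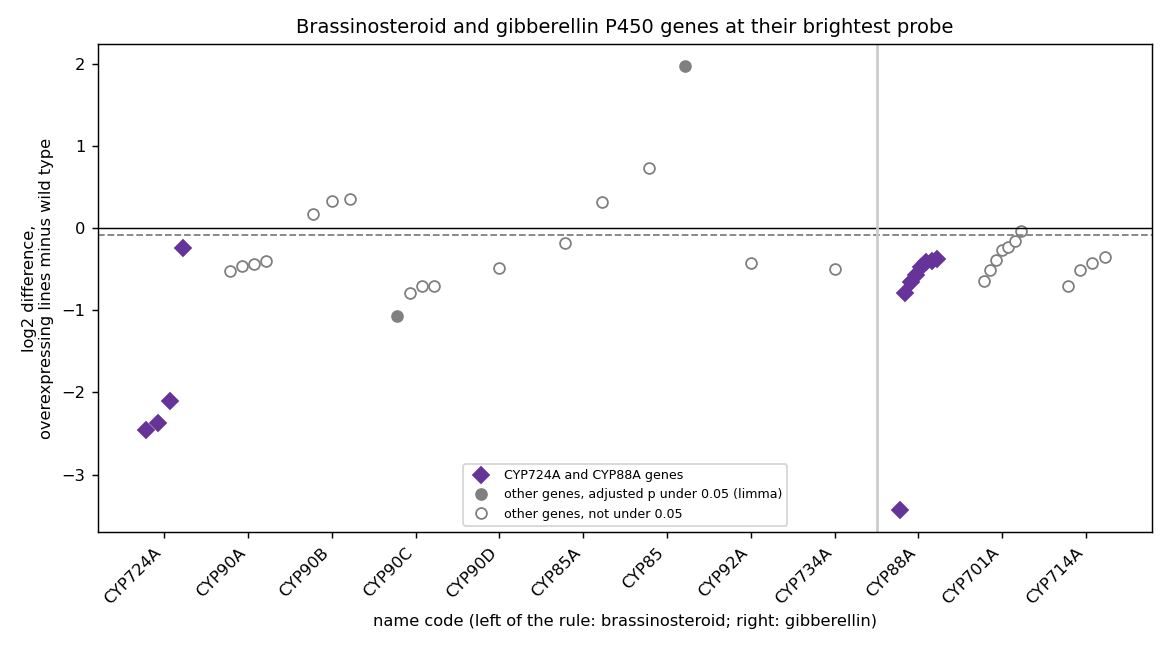
Log2 difference, overexpressing lines minus wild type (vertical axis), at the brightest probe of each tested gene, by name code, with CYP724A and CYP88A genes as filled diamonds, other genes as circles filled where the limma adjusted p was under 0.05, and a dashed line at the median of all tested genes (-0.09). CYP90B lies above 0, CYP90C and the gibberellin codes lie below it, and CYP85_LjSGA_048957.1 lies highest at 1.97.

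A further list, labelled other hormones here, was drawn up by P450 code alone. It covers codes of abscisic acid, cytokinin, strigolactone and jasmonate, and the CYP79, CYP83 and CYP94 families. Whether each of these genes acts on a hormone was not tested, so the counts are those of the codes. The list held 55 tested genes, of which 0 rose and 1 fell by limma, beside 2.21% and 1.09% of all tested genes. At an unadjusted p under 0.05 there were 5 higher and 10 lower, beside 238 and 249 of all 2488 genes. The gene that fell was CYP94A_chr2.CM0788.120.nc, of a family of fatty acid hydroxylases, with a log2 difference of -2.39 (limma adjusted p = 0.0300), and it was above background on 2 of the 3 line arrays and on all wild type arrays. The call ended without wild type array 2 (-2.65, limma adjusted p = 0.179), without arrays 1 and 3 (-2.13, adjusted p = 0.233) and without line 1 (-2.58, adjusted p = 0.118). It also ended with normexp background correction (-0.50, limma adjusted p = 0.0657), quantile normalization (-2.37, adjusted p = 0.0521), spike-in scaling (-2.62, adjusted p = 0.0759) and slide row as a block (-2.03, adjusted p = 0.220). The median of the 55 genes was -0.34.

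Genes outside these codes were ranked by the root mean square difference of their values from each of the 4 lower genes at its brightest probe, over the 6 arrays and relative to the wild type mean. This measure uses the difference between groups, so the genes it names share the size of that difference first of all. For comparison, CYP724A_chr2.CM0262.120.nd and CYP724A_chr2.CM0262.110.nd differed from each other by 0.14, and from CYP724A_chr1.CM0001.640.nc by 0.31 and 0.34.

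Nearest to CYP724A_chr2.CM0262.110.nd were the MADS-box gene LjMADS43 (0.32), CYP94A_chr2.CM0788.120.nc (0.41) and CYP76_chr1.CM0378.10.nc (0.44). Nearest to CYP724A_chr2.CM0262.120.nd was the triterpenoid oxidase family gene CYP716A_LjSGA_137705.1 (0.37), followed by LjMADS43 (0.43) and CYP94A_chr2.CM0788.120.nc (0.49). CYP716A_LjSGA_137705.1 shared the spread within groups, with wild type array 2 at -0.64 and arrays 1 and 3 at 0.68 and 0.60, and line 3 the highest line at -2.24.

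For CYP724A_chr1.CM0001.640.nc the nearest were FOLGT10_chr3.CM0282.1040.nc (0.32), LjZF-C2C2-GATA10 (0.36) and the laccase LAC24_LjT07C14.90.nd (0.37). The laccase was above background on 2 of the 3 line arrays. No gene came as close to CYP88A_chr2.CM0021.680.nc: CYP716A_LjSGA_137705.1 was nearest at 0.62, followed by BGLUG2_LjSGA_034905.1 (0.83) and BGLUG2_LjSGA_050606.1 (0.85). CYP88A_chr2.CM0021.680.nc was above background on 1 line array at the probe used and BGLUG2_LjSGA_050606.1 on 0. These distances thus rest in part on line values at background.

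**Figure D5:**
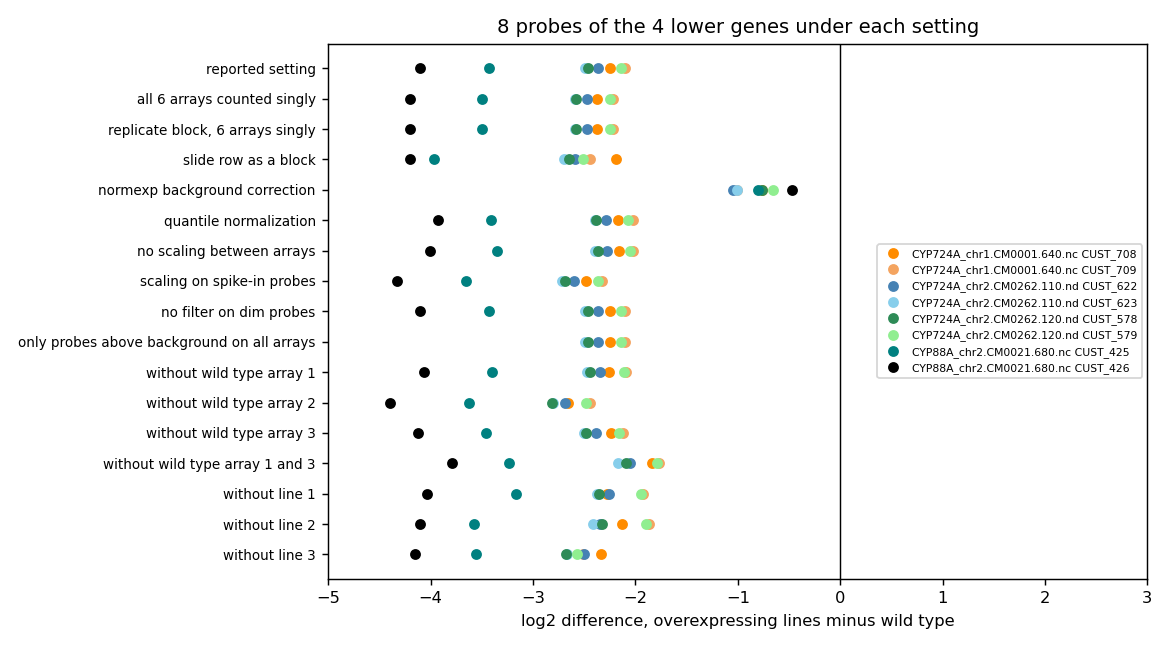
Log2 difference, overexpressing lines minus wild type (horizontal axis), of the 8 probes of the 4 lower genes (colours) under the reported setting and each alternative (rows). Every point lies below 0, the normexp row between -1.05 and -0.47 and the others at or below -1.77.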

How the data were processed

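Leaf RNA of 3 overexpressing lines and 3 wild type samples was labelled with Cy3 and hybridised to 1 array each. Per the file headers, the deposited intensity of a spot is the signal processed by Agilent Feature Extraction (version 10.7.3.1, per the submitters' processing notes), background-subtracted within its array with no scaling to other arrays. The series' deposited table held the same intensity in 91068 of 91068 cells (relative tolerance 1e-06). From it, log2 of the intensity minus the array's 75th percentile was computed. Outlier spots (32 to 78 per array) were left out, no spot was saturated, and spots of a probe were averaged. A probe was tested if at least 0.5 of its spots were well above background on at least 3 arrays (5039 probes of 2488 genes). Probes were fitted with limma 3.58.1 (lmFit and eBayes, R 4.3.3), and a call means an adjusted p (Benjamini-Hochberg) under 0.05. The number of arrays limits the precision, with 3 residual degrees of freedom and 2.54 prior ones. The fit was tested on simulated data.

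Averaging wild type arrays 1 and 3 followed an earlier analysis of these data. The genes, lists and rules were chosen with earlier results of these data known. Named genes are all CYP724A and CYP88A genes, the genes of the brassinosteroid and gibberellin lists that were called or were the brightest of their subfamily, the 3 genes nearest by root mean square to each gene with a called probe, LjMYB14 and LjMYB76a. The 2 CYP707A genes named among the other observations lie outside this rule and were chosen after their values were seen. Brightest means the highest mean over the arrays. The array's member names matched 0 of the 14 in the RefSeq gene table, and no probe sequence was used here, so no sequence or position is given beyond the chromosome or clone within a name. All arrays lay on 1 slide.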

Additional observations from a re-analysis of the deposited data

How the results depend on the processing

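Over 16 settings, 348 values of the 22 tested CYP724A and CYP88A probes were recomputed, of which 324 moved by no more than the spread between samples, 24 moved further and 0 at the 6 called probes changed sign. At 3 probes that were not called (CUST_525, CUST_607 and CUST_630) the sign changed in some settings, with values up to 0.31, 0.25 and 0.42. In all, 116 probes were called higher and 57 lower across the array. These counts were 342 and 297 with all 6 arrays counted singly, 13 and 9 with scaling on spike-in probes (which moved the median of all probes from -0.09 to -0.32), and 2 and 0 when slide row was the block (618 at an unadjusted p under 0.05). Fewer were called lower without scaling between arrays (37) and without a filter on dim probes (24). The 6 called CYP724A and CYP88A probes became 10 with 6 arrays singly, 2 with spike-in scaling and 0 when slide row was the block, where line 1 alone stands against wild type. The numbers in the titles were tried as a replicate block with 6 arrays singly, which gave 235 probes higher, 138 lower and 8 CYP724A and CYP88A probes lower. Same-numbered samples deviated together weakly (correlations of 0.01, 0.17 and 0.07), and line 3 correlated best with wild type array 1 (0.25). With 3 arrays per group these values cannot decide whether same-numbered samples were paired.

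Leaving out arrays gave 4 to 272 probes higher, 0 to 167 lower, 0 to 7 CYP724A and CYP88A probes lower, 0 to 1 brassinosteroid gene higher, 0 to 1 lower, and, of the other hormones, 0 to 1 gene higher and 0 to 3 lower. Where 1 wild type sample was left, it was assumed to vary like the lines. The 1 other brassinosteroid gene called higher became 0 with slide row blocked, normexp, spike-in scaling, or only probes above background on all arrays (which leaves that gene out). The 1 called lower became 2 with 6 arrays singly, where 5.89% of all tested probes were called lower. It became 0 with slide row blocked, no scaling, spike-in scaling, no filter, or the mean over the probes of a gene. Among the 55 genes of other hormones, the 0 called higher became 3 with 6 arrays singly, where 6.79% of all tested probes were called higher. It became 1 with the replicate block, normexp or quantile normalization, where 235, 167 and 134 of all 5039 tested probes were called higher. The 1 called lower became 4 with 6 arrays singly, where 5.89% of all tested probes were called lower. It became 2 with the replicate block (138 of all 5039 tested probes lower) or the mean over probes. It became 0 with slide row blocked, normexp, quantile normalization, spike-in scaling or only probes above background on all arrays. The cause was not tested. Normexp used the median spot signal, since the files used here hold no mean signal. Probes near background limit what these arrays show: 6 of the 28 probes were too dim.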

Other observations

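Among the other hormone codes, CYP707A, the abscisic acid 8'-hydroxylase family, had genes on both sides: 4 of its 8 tested genes had a negative log2 difference (overexpressing lines minus wild type), and the range was -1.52 to 1.26. CYP707A_LjT04D09.210.nd had the highest value (1.26, limma adjusted p = 0.0791) and CYP707A_chr5.CM0852.320.nc the lowest (-1.52, limma adjusted p = 0.103). Both were named after their values were seen. No CYP707A gene was called, but with all 6 arrays counted singly both named genes were under 0.05 (limma adjusted p = 0.0149 and 0.0292). In that setting 6.79% of all tested probes were called higher and 5.89% lower. The 4 CYP74C genes, of a family of fatty acid hydroperoxide enzymes, had differences of -0.71 to -0.29, none called.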
